A study of Mus musculus with 8 samples.

Results

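Secreted inhibitors of Wnt signalling were followed through T cells taken from tolerated and from rejected grafts. The group comprised 9 mouse genes: the secreted Frizzled-related proteins Sfrp1, Sfrp2, Sfrp4, Sfrp5 and Frzb, the Dickkopf proteins Dkk1, Dkk2 and Dkk3, and the Wnt inhibitory factor Wif1. Each was read by 1 probe set, so the group held 9 of the 21218 probe sets that carry exactly 1 gene symbol. The family was chosen by the log2 values of Sfrp1 itself, which had been seen to differ between tolerant and rejecting samples on the arrays numbered 3 and 4. That difference is therefore given as a description, without a test.

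Wnt proteins are secreted ligands that bind Frizzled receptors and the coreceptors Lrp5 and Lrp6, which leads to the accumulation of beta-catenin and to transcription through Tcf and Lef factors. Frizzled-related proteins and Wif1 bind Wnt ligands outside the cell, and most Dickkopf proteins act on the coreceptors instead. In adult tissue these inhibitors are known mainly from fibroblasts, other stromal cells and epithelia, whereas T cells are better known for the intracellular end of the pathway, Tcf7 and Lef1.

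The series compared CD3+ T cells recovered from grafts of human embryonic stem cell derivatives at day 30, in wild-type CD1 mice, an outbred strain. In 4 samples the hosts had been tolerised by injected antibodies against CD4, CD8 and CD40L, and in the other 4 the hosts were untreated and were rejecting the graft. All hosts carried such a graft. The labels give neither the age of the mice nor whether each sample came from a mouse of its own, so p-values reflect no more than the variation among these 8 samples, part of which may be technical. Total RNA was hybridised to 1-colour whole-transcript arrays, and values are log2 RMA values as deposited.

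Arrays stood apart by their number within the group more than by group. The background line of an array was the 99th percentile of its olfactory and vomeronasal receptor probe sets. The share of probe sets above it was 2.54% to 5.73% on the arrays numbered 1 and 2, and 10.7% to 17.1% on those numbered 3 and 4. The groups differed within each set too. Tolerant arrays 3 and 4 had the largest shares, 17.1% and 17.1%, against 15.1% and 10.7% on rejecting arrays 3 and 4. On arrays 1 and 2 the shares were 2.77% and 2.54% in tolerant samples, against 5.03% and 5.73% in rejecting samples. The background lines lay between 0.99 and 1.35. Each set held 2 tolerant and 2 rejecting arrays, so values are given set by set. Of 9 measured T cell markers, Cd3e, Cd5 and Thy1 exceeded the line on all 4 arrays numbered 3 and 4, and Cd3d, Cd247 and Cd28 exceeded it on 0 of the 8 arrays.

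Sfrp1 and Sfrp4 exceeded the background line on the tolerant arrays numbered 3 and 4 and on no other array. Of the other 7 inhibitors, Sfrp2 exceeded the line on 4 of the 8 arrays, in both groups, Dkk3 on 1, and 5 on no array. Sfrp1 (probe set 10570957), which binds Wnt ligands through a cysteine-rich domain like that of Frizzled, read 3.75 and 3.76 on tolerant arrays 3 and 4, against 0.75 and 0.46 on rejecting arrays 3 and 4. In the other set, numbered 1 and 2, the values were 1.15 and 0.70 in tolerant samples, against 0.89 and 0.66 in rejecting samples. Only tolerant arrays 3 and 4 were high, 2.71 and 2.77 above their background lines, and the other 6 values lay under theirs. The difference on the arrays numbered 3 and 4 was 3.15 ± 0.13 (SE). Because the rejecting arrays gave values under the line, the size is better stated as a bound, with these arrays set at their background lines. Sfrp1 was then at least 6.40-fold higher in tolerant samples. The bound allows for no error in the tolerant values, on which the gene was chosen.

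Sfrp4 (10403834), a Frizzled-related protein known from mesenchymal and bone tissue, followed the same arrays at a smaller size. It read 1.78 and 2.07 on tolerant arrays 3 and 4, against 0.39 and 0.49 on rejecting arrays 3 and 4. Arrays 1 and 2 gave 1.02 and 0.23 in tolerant samples, against 0.44 and 0.50 in rejecting samples. Here too the values on tolerant arrays 3 and 4 exceeded the line, by 0.73 and 1.08, and the other 6 did not. The difference on the arrays numbered 3 and 4 was 1.49 ± 0.14 (SE), or at least 1.80-fold with the rejecting arrays at their lines. This bound too allows for no error in the tolerant values. Among the differences of all 21218 probe sets on these 4 arrays, that of Sfrp1 ranked 4 from the top and that of Sfrp4 ranked 46. Since Sfrp1 was chosen for its difference on these arrays, its high rank follows from the choice and nothing is read from it.

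**Figure D1:**
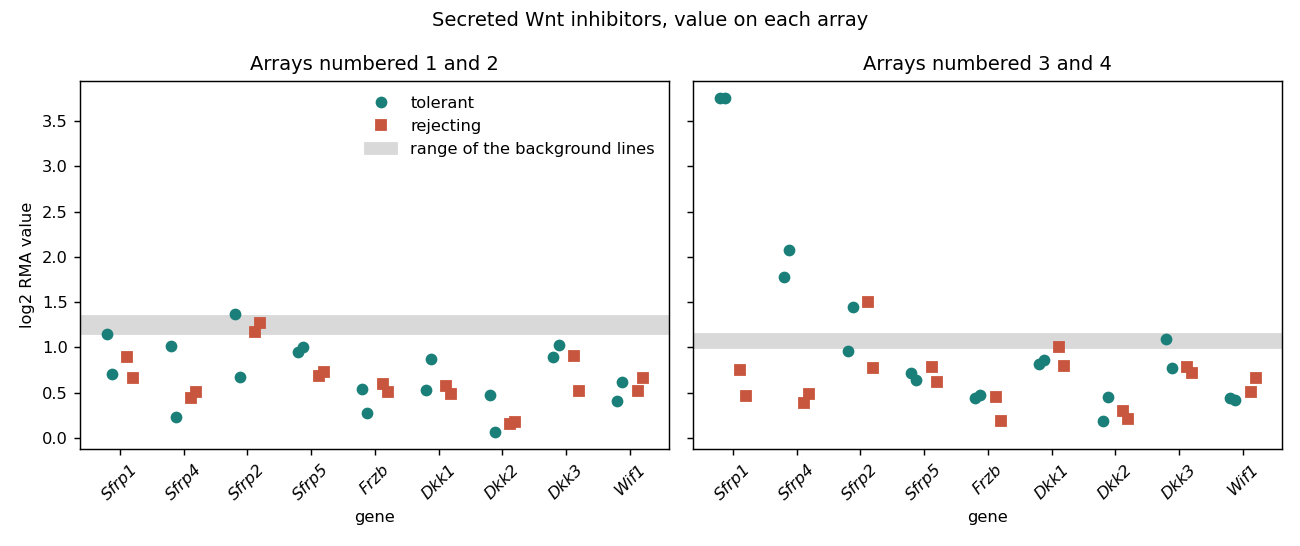
Log2 RMA values (vertical axis) of the 9 secreted Wnt inhibitors (horizontal axis) on the arrays numbered 1 and 2 (left) and 3 and 4 (right), 1 point per array, with the grey band spanning the background lines of that set. Sfrp1 at 3.75 and 3.76 and Sfrp4 at 1.78 and 2.07 on tolerant arrays 3 and 4 stand above the band, and the remaining genes lie in or under it or within 0.5 above it.

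The remaining Frizzled-related genes did not share this pattern. Sfrp2 (10492798), a relative of Sfrp1 made by fibroblasts, read 0.95 and 1.45 on tolerant arrays 3 and 4, against 1.50 and 0.78 on rejecting arrays 3 and 4. The arrays numbered 1 and 2 gave 1.36 and 0.67 in tolerant samples, against 1.17 and 1.27 in rejecting samples. The groups overlapped in both sets. Sfrp2 exceeded the background line on 4 of the 8 arrays, 2 of them tolerant and 2 rejecting.

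Sfrp5 (10467744), the closest relative of Sfrp1, read 0.72 and 0.64 on tolerant arrays 3 and 4, against 0.78 and 0.62 on rejecting arrays 3 and 4. In the other set, numbered 1 and 2, the values were 0.94 and 1.00 in tolerant samples, against 0.68 and 0.72 in rejecting samples. The tolerant values on the arrays numbered 1 and 2 were the higher pair, and all 8 values lay under the lines. Frzb (10484307), also called Sfrp3 and known from cartilage, read 0.44 and 0.47 on tolerant arrays 3 and 4, against 0.45 and 0.19 on rejecting arrays 3 and 4, and its groups overlapped. Arrays 1 and 2 gave 0.54 and 0.27 in tolerant samples, against 0.59 and 0.50 in rejecting samples, again under every line and with overlap.

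Dickkopf genes were at background on nearly every array. Dkk1 (10467006), which blocks Lrp5 and Lrp6, read 0.82 and 0.86 on tolerant arrays 3 and 4, against 1.00 and 0.80 on rejecting arrays 3 and 4. The arrays numbered 1 and 2 gave 0.53 and 0.87 in tolerant samples, against 0.57 and 0.48 in rejecting samples. The groups overlapped in both sets, with all 8 values under the lines. Dkk2 (10496125), which can inhibit or enhance the signal depending on the cell, read 0.18 and 0.46 on tolerant arrays 3 and 4, against 0.29 and 0.21 on rejecting arrays 3 and 4. In the other set, numbered 1 and 2, the values were 0.47 and 0.06 in tolerant samples, against 0.16 and 0.18 in rejecting samples. These values overlapped as well and lay under the lines.

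Dkk3 (10567010), a divergent Dickkopf protein that does not bind the coreceptors as Dkk1 does, read 1.09 and 0.77 on tolerant arrays 3 and 4, against 0.79 and 0.72 on rejecting arrays 3 and 4. Arrays 1 and 2 gave 0.89 and 1.03 in tolerant samples, against 0.90 and 0.51 in rejecting samples. It exceeded the line on 1 array, tolerant 3, and the groups overlapped in both sets. Wif1 (10366653), which binds Wnt ligands through its own WIF domain, read 0.44 and 0.42 on tolerant arrays 3 and 4, against 0.51 and 0.66 on rejecting arrays 3 and 4. The arrays numbered 1 and 2 gave 0.41 and 0.61 in tolerant samples, against 0.52 and 0.66 in rejecting samples. Its tolerant values were the lower pair on the arrays numbered 3 and 4, though every value lay under the lines.

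Of the 72 values of the 9 genes, 9 exceeded the background line: 4 from Sfrp1 and Sfrp4, 4 from Sfrp2 and 1 from Dkk3. By array, 3 of the 9 genes exceeded it on tolerant 3 and on tolerant 4, 1 on tolerant 1, and 0 on tolerant 2. On rejecting arrays the counts were 1 on rejecting 2 and on rejecting 3, and 0 on rejecting 1 and on rejecting 4. Over the 8 arrays, 3 of the 9 genes exceeded the line at least 2 times, against 17.3% of all probe sets. Sfrp1 did so only through tolerant arrays 3 and 4, which chose it, so nothing is read from this count.

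The arrays numbered 1 and 2 played no part in the choice of the family, and there 0 of the 9 genes passed the test between tolerant and rejecting samples, as did 0% of all probe sets. The test was limma's moderated linear model, 2-sided, with p-values adjusted by Benjamini-Hochberg across all 21218 probe sets and called under 0.05. Sfrp1 had a difference of 0.15 ± 0.19 (SE, limma adjusted p = 0.960), and Sfrp4 one of 0.15 ± 0.24 (SE, limma adjusted p = 0.965). The largest difference in size was that of Sfrp5, 0.27 ± 0.15 (SE, limma adjusted p = 0.936), and Dkk3 had 0.25 ± 0.18 (SE, limma adjusted p = 0.945). At an unadjusted p under 0.05, 0 of the 9 genes and 5.15% of all probe sets passed. Sfrp5 was the 1 gene whose groups did not overlap with tolerant samples higher, against 17.2% of all probe sets. Sfrp1 and Sfrp4 lay under the line on all 4 of these arrays, and a difference within background cannot be read. The part of low signal in this result was not tested. Without tolerant replicate 1 the difference of Sfrp1 was -0.07 and that of Sfrp4 -0.24, and without tolerant replicate 2 they were 0.38 and 0.54.

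Over all 8 arrays, 0 of the 8 genes other than Sfrp1 passed the same test, as did 0% of all probe sets, and the tolerant values of Sfrp1 and Sfrp4 were split by set. Sfrp1 averaged 2.34 ± 1.64 in tolerant samples and 0.69 ± 0.18 in rejecting samples (SD, n = 4 each), which makes the difference 1.65 ± 0.67 (SE). Sfrp4 averaged 1.28 ± 0.83 in tolerant samples and 0.46 ± 0.05 in rejecting samples (SD, n = 4 each), which makes the difference 0.82 ± 0.34 (SE, limma adjusted p = 1.00). Differences of the other 7 genes lay between -0.12 for Wif1 and 0.21 for Dkk3, with a limma adjusted p of 1.00 each. The 9 genes had a median difference of 0.08, with 6 higher and 3 lower, and all probe sets had a median of 0.00036, with 50.1% higher. At an unadjusted p under 0.05 there was 1 of these 8 genes, Sfrp4, and 2.89% of all probe sets. Sfrp1 is given here without a test, since these arrays include those that chose it. Blocking on the replicate number also left 0 genes passing.

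On the arrays numbered 3 and 4, the contrast in which Sfrp1 was first seen, limma called 1 of the 9 genes, Sfrp1, against 0.0518% of all probe sets, and nothing is read from that count. Without tolerant replicate 3 or without tolerant replicate 4 the count was 0, and the difference of Sfrp1 was then 3.15 in either fit. With differences of at least 1 there were 2 of the 9 genes, Sfrp1 and Sfrp4, against 0.528% of all probe sets. Since Sfrp1 was chosen for its difference on these arrays, nothing is read from a count that includes it. The other 7 genes had differences between -0.16 for Wif1 and 0.18 for Dkk3. Groups did not overlap in 2 of the 9 genes, again Sfrp1 and Sfrp4, with tolerant samples higher, against 19.3% of all probe sets. In 1, Wif1, they did not overlap with tolerant samples lower, against 20% of all probe sets. The median over the 9 genes was 0.07, against -0.0067 over all probe sets.

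**Figure D2:**
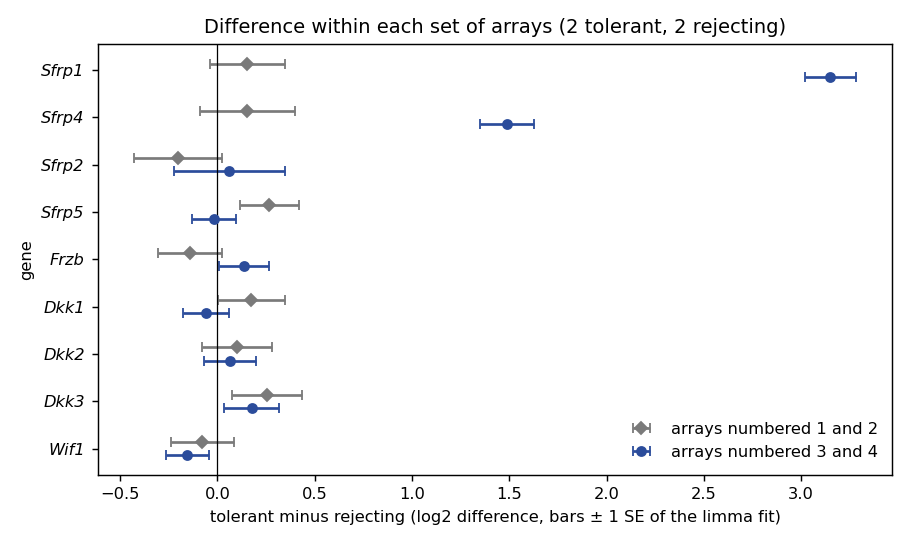
Tolerant minus rejecting difference in log2 RMA value (horizontal axis, bars ± 1 standard error of the limma fit) for each secreted Wnt inhibitor (vertical axis), within the arrays numbered 1 and 2 (diamonds) and 3 and 4 (circles). Sfrp1 at 3.15 and Sfrp4 at 1.49 on the arrays numbered 3 and 4 lie apart from the other points, which fall between -0.20 and 0.27.

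The gap between the sets in the tolerant minus rejecting difference was 3.00 for Sfrp1 with a standard error of 0.25, a description since it holds the contrast that chose the gene. For Sfrp4 it was 1.34 ± 0.32 (SE) and did not pass (limma adjusted p = 0.321), and for the other 7 genes the lowest limma adjusted p was 0.795. Limma called 1 of the 9 genes, Sfrp1, against 0.0566% of all probe sets, from which nothing is read, and 0 without tolerant replicate 3, without rejecting replicate 2 or with the arrays quantile normalized again, where the gap for Sfrp1 was 1.98.

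Rejecting samples had Sfrp1 and Sfrp4 under the background line in both sets. The share of probe sets above it was 15.1% and 10.7% on rejecting arrays 3 and 4, less than the 17.1% on both tolerant arrays. On rejecting arrays 1 and 2 it was 5.03% and 5.73%. The part of array signal in these values was not tested. Sfrp1 averaged 0.60 on rejecting arrays 3 and 4 and 0.77 on rejecting arrays 1 and 2, and Sfrp4 averaged 0.44 on the first pair and 0.47 on the second. Between the sets, with the group in the model, 0 of the 8 genes other than Sfrp1 passed, against 7.45% of all probe sets. For Sfrp1 the difference of 1.33 ± 0.49 (SE) is a description, since the tolerant values that chose the gene enter it. Sfrp4 had a difference of 0.63 ± 0.26 (SE, limma adjusted p = 0.172), and Dkk1 one of 0.25 ± 0.11 (SE, limma adjusted p = 0.186). These were the 2 of the 8 genes with an unadjusted p under 0.05, against 24.5% of all probe sets.

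Cell type markers, those of T cells included, were mostly higher on the same tolerant arrays as Sfrp1 and Sfrp4. In limma on the arrays numbered 3 and 4, 2 of the 11 kidney tubule markers passed, Slc12a3 and Calb1, against 0.0518% of all probe sets. In the other 6 lists 44 of 52 markers were higher in tolerant samples, against 48.2% of all probe sets. Each marker was read by its probe set with the highest mean, so these shares are not of like probe sets. Of these 52, 0 passed and 18 had an unadjusted p under 0.05, against 7.2% of all probe sets. The mean of 13 fibroblast and stroma markers was 1.95 and 1.87 on tolerant arrays 3 and 4, against 1.45 and 1.16 on rejecting arrays 3 and 4, and 0.83 to 0.92 on the arrays numbered 1 and 2. On tolerant arrays 3 and 4, 8 of the 13 exceeded the line, against 6 and 5 on rejecting arrays 3 and 4. Lum, Pdgfra, Pdgfrb, Postn and Mfap5 exceeded it on 0 of the 8 arrays.

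Within that list the genes differed in how far they followed Sfrp1. Dcn, the matrix proteoglycan decorin, read 4.90 and 4.39 on tolerant arrays 3 and 4, against 1.76 and 1.10 on rejecting arrays 3 and 4. Col6a1, a chain of collagen VI, read 2.65 and 2.20 on tolerant arrays 3 and 4, against 2.92 and 2.12 on rejecting arrays 3 and 4. Of the 13 markers, 12 were higher in tolerant samples on these arrays, against 48.2% of all probe sets, and Col6a1 was the 1 that was lower. Col1a1, a fibroblast collagen, read 4.14 and 3.78 on tolerant arrays 3 and 4, against 3.39 and 3.08 on rejecting arrays 3 and 4. The differences of Col1a1, Col1a2 and Col3a1 were 0.72, 0.53 and 0.51.

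The mean of 11 kidney tubule markers was 2.28 and 1.80 on tolerant arrays 3 and 4, against 0.79 and 0.84 on rejecting arrays 3 and 4, with 8 and 7 against 2 and 1 of the 11 above the line. Lrp2, Pvalb and Kl exceeded it on 0 of the 8 arrays. The mean of 8 macrophage markers was 1.68 and 1.87 on tolerant arrays 3 and 4, against 1.15 and 0.55 on rejecting arrays 3 and 4, with 6 and 5 against 5 and 0 of the 8 above the line. Adgre1 was the 1 macrophage marker above the line on no array. Both lists were highest on the arrays where Sfrp1 and Sfrp4 were high.

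Endothelial, epithelial, smooth muscle and T cell lists had means closer between the groups than the kidney tubule and macrophage lists. The means were 0.93 and 0.80 on tolerant arrays 3 and 4, against 0.68 and 0.56 on rejecting arrays 3 and 4, for 8 endothelial markers, of which 2 and 2 against 0 and 0 exceeded the line. For 7 epithelial markers they were 1.17 and 1.03, against 0.76 and 0.83, with 4 and 3 against 1 and 1 above the line. For 7 smooth muscle and pericyte markers they were 0.66 and 0.74, against 0.63 and 0.70, and 6 of these markers exceeded the line on no array. The 9 T cell markers averaged 1.20 and 1.57 on tolerant arrays 3 and 4, against 1.02 and 1.13 on rejecting arrays 3 and 4. Of these 9, 8 were higher in tolerant samples, against 48.2% of all probe sets. Cd3e, part of the CD3 complex that signals for the antigen receptor, read 2.75 and 3.82 on tolerant arrays 3 and 4, against 1.51 and 2.36 on rejecting arrays 3 and 4. The part of other cells, or of signal, in the values of Sfrp1 and Sfrp4 was not tested. In RNA from bulk cells, a different number of cells of a type and a different amount of RNA per cell cannot be told apart.

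**Figure D3:**
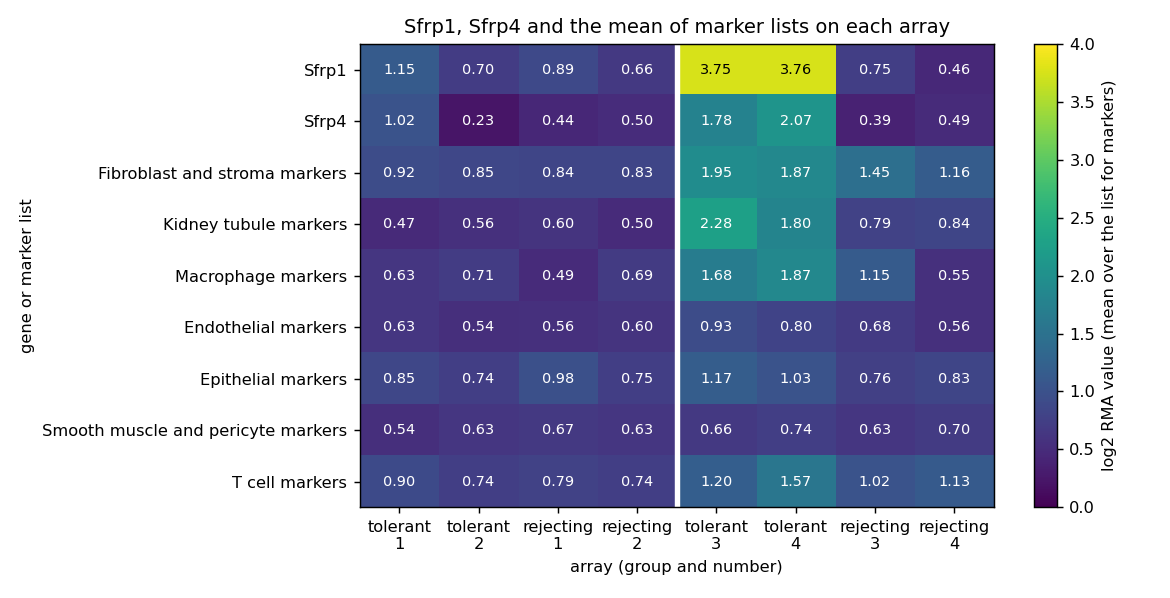
Log2 RMA values of Sfrp1 and Sfrp4 and the mean log2 RMA value of 7 lists of cell type markers (rows) on each of the 8 arrays (columns, labelled by group and number), with the colour scale and the printed values in the same unit. Tolerant arrays 3 and 4 hold the 2 highest values of Sfrp1, of Sfrp4 and of 6 of the 7 lists, the exception being smooth muscle and pericyte.

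The genes whose pattern over the 8 arrays was most like that of Sfrp1 were Cd81, Malat1, Slc12a3, Egf, Ifitm3, Adgrg1, Selenop, Bgn, Atp1b1 and Tmem52b, in that order. Likeness was the root mean square difference from Sfrp1 over 8 arrays, after each probe set was centred on its own mean, among 16909 genes, and it is a description without a test. Cd81, a tetraspanin of the cell surface, had a root mean square difference of 0.30 and read 3.30 and 3.27 on tolerant arrays 3 and 4, against 0.92 and 0.89 on rejecting arrays 3 and 4. Slc12a3, the thiazide-sensitive cotransporter of the distal kidney tubule, had 0.39, and Egf, the epidermal growth factor precursor, had 0.41. Bgn, the matrix proteoglycan biglycan, had 0.45. Among the inhibitors, Sfrp4 ranked 42 with 0.70, and the next was Dkk3, ranked 4470 with 1.26.

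Other genes of the Wnt pathway were taken from 6 lists holding 85 genes, of which 81 were measured. Of these, 47 exceeded the background line on no array. In limma 0 of the 81 passed over all 8 arrays (6 at an unadjusted p under 0.05, against 2.89% of all probe sets), 0 passed on the arrays numbered 1 and 2 (5 at an unadjusted p under 0.05, against 5.15% of all probe sets), and 0 passed on the arrays numbered 3 and 4. Their median difference on the arrays numbered 3 and 4 was 0.04, with 49 higher and 32 lower, against -0.0067 over all probe sets, with 48.2% higher. On the arrays numbered 1 and 2 it was -0.02, with 36 higher and 45 lower, against -0.0028 over all probe sets, with 49.4% higher. Between the sets, 2 of the 81 passed, a smaller share than the 7.45% of all probe sets. Both were higher on the arrays numbered 3 and 4 and are named after their values were seen. The Frizzled receptor gene Fzd9 had 0.48 ± 0.11 (SE, limma adjusted p = 0.0254). Bcl9l, a cofactor of beta-catenin, had 0.48 ± 0.11 (SE, limma adjusted p = 0.0268). Fzd9 exceeded the background line on 3 of the 8 arrays and Bcl9l on 1.

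Among ligands, Wnt10b had the smallest p of its list, with a difference of -0.43 on the arrays numbered 1 and 2 and of -0.09 on those numbered 3 and 4. Over the 19 ligands the medians were -0.03 on the first set and -0.08 on the second. Among the 17 receptors and coreceptors, Fzd4, a Frizzled receptor, had differences of 0.19 and 0.58 on these sets, and the coreceptors Lrp5 and Lrp6 had 0.41 and 0.26 on the arrays numbered 3 and 4. Lrp6, Fzd1, Fzd6 and Fzd7 lay under the line on all 8 arrays. In the list of secretion factors and amplifiers, Lgr4, a receptor for R-spondins, had -0.41 and -0.13 on the 2 sets. It too lay under the line on all 8 arrays.

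Other extracellular or membrane inhibitors, 13 measured, had a median of -0.18 on the arrays numbered 1 and 2 and of 0.06 on those numbered 3 and 4. Sostdc1, a secreted antagonist of Wnt and BMP signals, is named after its values were seen. It read 1.44 and 1.25 on tolerant arrays 3 and 4, against 0.37 and 0.29 on rejecting arrays 3 and 4, a difference of 1.02 ± 0.12 (SE) that did not pass (limma adjusted p = 0.128). Tolerant arrays 3 and 4 were again the high ones, and on the arrays numbered 1 and 2 its difference was -0.03. Sost, the bone antagonist sclerostin, had -0.52 ± 0.16 on the arrays numbered 1 and 2 (SE, limma adjusted p = 0.936).

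Inside the cell, Ctnnb1, which encodes beta-catenin, read 1.59 and 1.58 on tolerant arrays 3 and 4, against 0.56 and 0.83 on rejecting arrays 3 and 4, a difference of 0.88 ± 0.13 (SE, limma adjusted p = 0.189). The kinase Gsk3b, which marks beta-catenin for degradation, had 0.51 (limma adjusted p = 0.470) and lay under the line on all 8 arrays. Lef1, the transcription factor that binds beta-catenin, read 0.87 and 0.75 on tolerant arrays 3 and 4, against 0.91 and 1.24 on rejecting arrays 3 and 4. Tcf7 was not analysed here.

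Of the 13 target genes measured, 0 passed on the arrays numbered 3 and 4, with 9 higher, 4 lower and a median difference of 0.04. Of all probe sets, 48.2% were higher there. Axin2, the most widely used readout of the pathway, read 0.90 and 0.92 on tolerant arrays 3 and 4, against 0.82 and 0.77 on rejecting arrays 3 and 4, under the line on all 8 arrays. Myc lay under the line on all 8 arrays as well. Ccnd1, which encodes cyclin D1, read 2.36 and 1.56 on tolerant arrays 3 and 4, against 0.96 and 0.73 on rejecting arrays 3 and 4, a difference of 1.12 ± 0.27 (SE, limma adjusted p = 0.428). Sostdc1 and Ccnd1 were the 2 genes of the 81 with a difference of at least 1 there, against 0.528% of all probe sets. Small differences of genes under the line do not show that expression was the same.

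**Figure D4:**
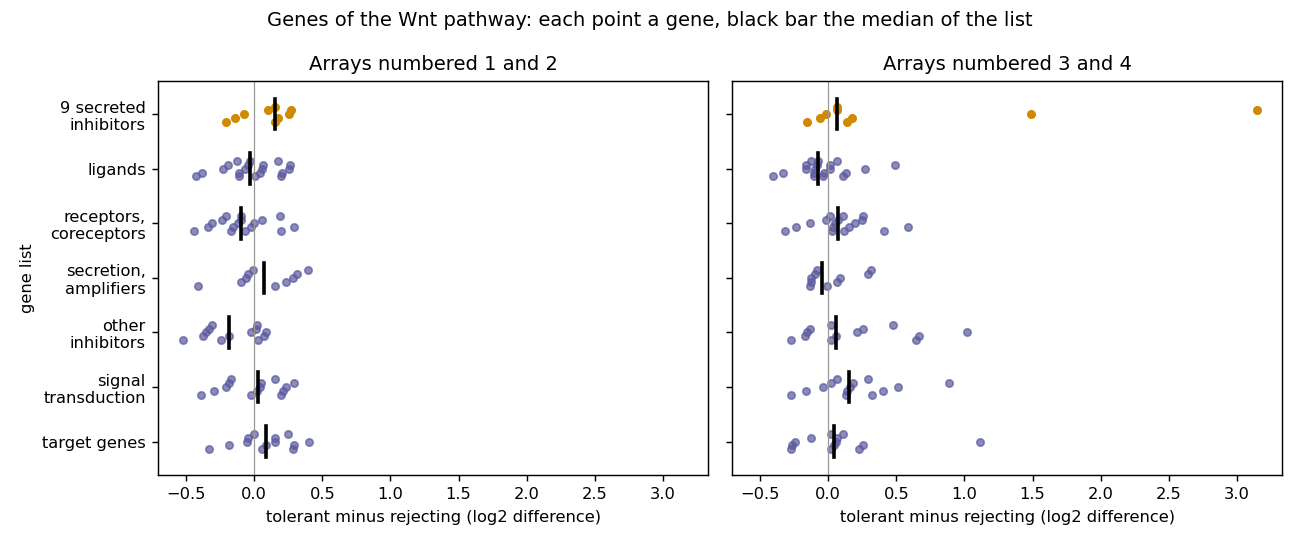
Tolerant minus rejecting difference in log2 RMA value (horizontal axis) of the genes of 6 Wnt pathway lists and of the 9 secreted inhibitors (rows), on the arrays numbered 1 and 2 (left) and 3 and 4 (right), 1 point per gene with a black bar at the median of the list. Medians lie between -0.18 and 0.15 in both sets, and Sfrp1, Sfrp4, Sostdc1 and Ccnd1 are the points at 1 or beyond.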

How the data were processed

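The authors deposited log2 expression values, for which the submitters' processing notes list Affymetrix Expression Console and RMA, a method that subtracts background, brings arrays to 1 distribution and summarises probes. The deposited values were not on 1 distribution: array medians ran from 0.47 on tolerant array 4 to 0.52 on tolerant array 2. For software versions and the build, the sources used here give nothing. Base 2 was taken because array maxima of 12.57 to 12.68 would exceed a scanner's range as natural or decimal logarithms.

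Of 35556 probe sets, 21218 had exactly 1 gene symbol in the platform annotation, 1881 several and 12457 none listed. Symbols were checked against the GRCm38.p6 gene table by Entrez identifier. A gene with several probe sets was represented by the one with the highest mean over the 8 arrays. Shares of listed genes and shares of all probe sets are therefore not of like probe sets. Members and gene lists were chosen with earlier results of these data known. From each Wnt list, up to 4 genes with the smallest unadjusted p were eligible to be named, with 10 fixed genes.

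Differences were tested with limma 3.58.1 (statmod 1.5.0, R 4.3.3), tested on simulated data, and figures drawn with Python 3.11.15 and matplotlib 3.10.9. Background lines came from 1182 receptor probe sets. The number of arrays limits the precision.

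The reported fits leave the replicate number out, and a fit with it as a block was an alternative. The deviations of same-numbered arrays from their group means correlated, across probe sets, by 0.499, 0.507, 0.410 and 0.599, all above 0.1. Unlike numbers of the same set correlated as much (0.411 to 0.581), so the correlation followed the set and gives no pairing by number. The labels name no pairs.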

Additional observations from a re-analysis of the deposited data

Results flagged for a closer look

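The gap between the sets in the tolerant minus rejecting difference of Sfrp1, 3.00, stood out because the effect differed between the arrays numbered 3 and 4 and those numbered 1 and 2, with the gene chosen on the first of these. In the 18 groups of 4 arrays formed by 9 genes, a single array stood far from the other 3 in 2 groups, where chance alone marks about 1 group in 20. Dkk1 read 0.53 on tolerant array 1, below the other tolerant arrays, and Wif1 read 0.61 on tolerant array 2, above the others. Both values lay under the background line.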

How the results depend on the processing

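Over all 8 arrays, on the arrays numbered 1 and 2, and between the sets, the count of inhibitors passing was 0 under every alternative that could be fitted, the replicate block among them. On the arrays numbered 3 and 4 the 1 gene called was Sfrp1, which was chosen on these arrays, so nothing is read from the counts there. The count was also 1 with the replicate block, and 0 with all 35556 probe sets tested. It was 2 with trend and robust moderation and 2 when probe sets were averaged by gene, with Sfrp4 passing in both. The gap between the sets holds the same contrast, and its count of 1 was again Sfrp1, from which nothing is read. That count was 0 with quantile normalization and 0 with all probe sets. With the background line at the 95th percentile, the inhibitors above it numbered 4, 2, 6 and 6 on tolerant arrays 1 to 4, and 3, 1, 5 and 3 on rejecting arrays 1 to 4. Sfrp1 then also exceeded the line on tolerant array 1 and on rejecting arrays 1 and 3, and Sfrp4 on tolerant array 1.

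Over all probe sets, the 11 calls on the arrays numbered 3 and 4 became 6 with quantile normalization, 5 without dim probe sets, 0 with all probe sets, 26 with trend and robust moderation, 45 with gene means, and 0 to 48 without single arrays. The 12 calls for the gap became 7 with the replicate block, 0 with quantile normalization, 6 without dim probe sets, 0 with all probe sets, 33 with gene means, and 0 to 76 without single arrays. The 1580 calls between the sets became 492, 909 and 998 with quantile normalization, without dim probe sets and with gene means, and 863 to 1426 without single arrays. They rose to 2094 with the replicate block, 1826 with all probe sets and 1791 with trend and robust moderation. The 0 calls on the arrays numbered 1 and 2 became 2 without tolerant replicate 2. The causes were not tested. Without dim probe sets, 0 of the 9 inhibitors were left to test on the arrays numbered 1 and 2, so that fit gives no value. Over all 8 arrays, between the sets and for the gap, Sfrp1 was then the 1 inhibitor left to test.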
